A study of Mus musculus with 10 samples.

Results

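The genes described here encode the proteins of the cytosolic ribosome. They were taken by name from a table of read counts per gene, as the protein-coding mouse genes whose symbol is Rpl or Rps with a number, together with Rpsa, Rplp0, Rplp1 and Rplp2. Of the 55421 genes in the table, 83 met this rule, 32 of the small subunit and 51 of the large subunit. The rule used no measured value. Kinases of ribosomal protein S6 and rows named as pseudogenes were left out, as were 6 further genes with matching symbols that are not annotated as protein-coding.

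RNA was sequenced from germinal center B cells, the B cells that proliferate and are selected in lymphoid follicles after immunization, isolated from the spleens of C57BL/6 mice aged 8 to 10 weeks. By genotype the mice were Pbrm1+/+ (WT) or Pbrm1-/- (HOMO), and Pbrm1 encodes a bromodomain subunit of the PBAF chromatin remodelling complex. All were sampled on day 10 after immunization. Beads that bind the lectin PNA were used for enrichment, ribosomal RNA was depleted, and 4 groups were sequenced: WT CB (3 libraries), WT CC (3), HOMO CB (2) and HOMO CC (2). Not given by the labels are the meaning of CB and CC, the names of the 2 fractions, how these were separated, how the Pbrm1 allele was made, in which cells it is lost, what the letters AID in the column names stand for, and whether the libraries of a group come from different mice, so p-values measure only the spread between these libraries.

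Each ribosome holds a single copy of most of these proteins, and their genes are among the most abundantly transcribed in dividing cells. In vertebrates their mRNAs usually begin with a C followed by a run of pyrimidines, the 5′ terminal oligopyrimidine (TOP) tract, through which mTORC1 and the RNA-binding protein Larp1 control their translation. Germinal center B cells grow and divide rapidly, and Myc and mTORC1 are known to drive ribosome production in them.

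The start of the transcript is shown for members on which the results below turn, because the TOP tract lies there. The windows come from the RefSeq promoter table (build GRCm38.p6), which held 63 of the 83 members. Each window is 30 bases, written 5′ to 3′ on the strand of the gene, with 10 bases before the annotated start and 20 from it. Capitals mark a C and 4 or more further pyrimidines, read from the nearest such C within 10 bases of the start. Pyrimidines just before that C are left in small letters.
Rps10: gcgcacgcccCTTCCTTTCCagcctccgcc
Rpl35a: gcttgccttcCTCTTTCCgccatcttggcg
Rps15a: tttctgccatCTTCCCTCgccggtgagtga
Rps27: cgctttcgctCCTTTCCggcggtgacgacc
Rpl22l1: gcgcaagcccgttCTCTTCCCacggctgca
Rps27l: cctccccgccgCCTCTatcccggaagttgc
Rpl39: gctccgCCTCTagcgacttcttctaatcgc
Rps26: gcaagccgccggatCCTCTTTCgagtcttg
Rpl5: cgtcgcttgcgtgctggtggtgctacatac
Rpl41: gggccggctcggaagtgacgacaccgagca
The windows lie at chr17:27635225-27635254 (-) for Rps10, chr16:33056472-33056501 (+) for Rpl35a (the second of its 3 annotated starts), chr7:118116128-118116157 (-) for Rps15a, chr3:90213629-90213658 (-) for Rps27 and chr3:28805498-28805527 (+) for Rpl22l1. Those of the others are chr9:66946076-66946105 (+) for Rps27l (the first of its 2 starts), chrX:37085203-37085232 (-) for Rpl39, chr10:128626487-128626516 (-) for Rps26, chr5:107900518-107900547 (+) for Rpl5 and chr10:128549149-128549178 (-) for Rpl41. In the first 4 the capitals begin at the annotated start itself, where pyrimidines also stand just before it. In the next 4 they begin nearby, and in the last 2 no such run was found in the window.

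The 63 matched members have 75 annotated starts, since 10 of them have several. Read from the annotated start, 13 of the 75 (17.3%) opened with a C and at least 4 further pyrimidines, against 2.51% of the 32851 starts in the table. Bases before the start were not considered, so a start can lie inside a longer run. Such a run was found within 10 bases of the start at 41 (54.7%), against 30.7%. In the windows of 250 bases before to 50 after the start, searched on both strands, the ETS-type motif CCGGAAG occurred at 36.0% of members' starts and 8.86% of all starts. The YY1-type motif AAGATGGC occurred at 10.7% and 2.75%, TATAAA at 9.33% and 13.6%, and the E-box CACGTG at 10.7% and 7.15%. Motifs were searched one by one and may overlap, and a match describes letters only. In WT, the median log2 change from CB to CC was -0.28 for the 27 tested members with a single start and a run within 10 bases, and -0.22 for the 24 without.

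Before the comparisons, some properties of the libraries bear on every result. Total counts ranged from 9954006 (HOMO CC 3) to 67625110 (HOMO CB 3). Libraries of a group differed by more than sampling noise in all 8 pairs, with a chi-square of 4.14 to 80.7 per degree of freedom over genes. Pbrm1 was lower in all HOMO libraries, with 319, 309 and 312 in WT CB, 239, 239 and 250.3 in WT CC, 178 and 164 in HOMO CB and 152 and 150.4 CPM in HOMO CC. The 10 germinal center markers summed to 8032 to 9690 CPM in WT CB, 6307 to 6660 in WT CC, 9173 to 9434 in HOMO CB and 7116 to 7456 in HOMO CC, and 4 of them passed as lower from CB to CC in WT and 2 in HOMO. The key germinal center factor Bcl6 read 357 to 582 CPM over all libraries. In WT CC the dark zone marker Cxcr4 was lower (log2 -1.89, adjusted p = 3.81e-05, edgeR) and the light zone marker Cd83 higher (1.31, 4.7e-05) than in WT CB. WT CC libraries 1 and 2 stand apart: transcripts of the ribosomal RNA locus took 22.7% and 19% of their counts, against 13.5% in WT CC 3 and 8.72% to 11.9% in the other 7 libraries. The summed level of 12 macrophage markers was 1021, 465 and 288 CPM in WT CC 1, 2 and 3, 314 to 408 in WT CB, 275 to 312 in HOMO CB and 236 to 243 in HOMO CC. Apoe, which gave 212 to 399 CPM in every library, made up most of the lower sums, while Csf1r read 196, 40.8 and 7.02 CPM in WT CC and at most 2.92 in the other groups. Vsig4 was at 0 in 8 of the 10 libraries. In WT CC against WT CB, 7 of the 11 tested macrophage markers and 3 of the 5 tested red cell precursor markers passed as higher. The 6 follicular B cell markers summed to 204 to 225 CPM in WT CB and 437 to 474 in WT CC (2 of 6 passed as higher), and to 194 to 207 and 398 to 445 in the HOMO fractions (1 of 6). The 8 T cell markers summed to 78.8 to 118 and 160 to 231 in WT (2 of 8 passed as higher) and to 67.4 to 74.2 and 119 to 131 in HOMO (1 of 8). In WT CC 2, which had the highest of these sums, Cd3e, Cd8a and Cd8b1 were at 0. The 5 plasma cell markers summed to 647 to 724 and 293 to 515 in WT (2 of 5 passed as lower) and to 781 to 840.1 and 414 to 428 in HOMO (1 of 5). They did not move as a set: 3 of the 5 were above 0 from CB to CC in each genotype, with median log2 changes of 0.29 and 0.01. The part of these differences in the results below was not tested.

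Levels differed widely between members. CPM (the count of a gene relative to all counts of its library, scaled by TMM), divided by the deposited gene length, had a median of 128 CPM per kb over the 80 members above 1 CPM, 131 for the small and 121 for the large subunit. The highest were Rps15 (749.9 CPM per kb), Rps3a1 (740.1), Rpl4 (665) and Rplp0 (639.6), the last being the anchor of the ribosomal stalk. The lowest were Rpl24 (3.71), Rps10 (4.6), Rpl36a (20.6) and Rpl27 (21.4). Rpl24 and Rps10 share 47.0% and 28.7% of their exon bases with other annotated genes, and 81.7% and 56.8% of the 50-base stretches of their main transcripts occur in another gene, so counts can be split or dropped there. Across the 80 members, the level per kb had a Spearman correlation of -0.07 with that share of 50-base stretches. The deposited length counts every annotated exon, so a long, little used exon lowers the value per kb.

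The tissue-restricted copies were near absent. Rpl10l, a testis copy of Rpl10, had no read in any library. Rpl3l, the muscle copy of Rpl3, reached at most 0.187 CPM, and Rpl39l, the testis copy of Rpl39, at most 0.259 CPM. These 3 did not pass the filter on low counts, which left 80 of the 83 members among the 16596 genes tested.

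Summed over the 83 members, CPM was 28589.9, 31444 and 21304 in WT CB 1, 2 and 3, 21113, 22249.5 and 22614 in WT CC, 22524 and 22958 in HOMO CB 2 and 3, and 22558 and 21668 in HOMO CC. WT CB libraries 1 and 2 were above all others, and the other 8 lay within a narrow band that included WT CB 3. The same 2 libraries stood apart in their trend with gene length over genes whose mean log2 CPM was 3 or more: the rank correlation of a gene's deviation from its mean with its length was -0.345 and -0.432 there and -0.0143 to 0.197 in the other 8. The part of this trend in the results was not tested. The group means were 27113 ± 5229 (SD, n = 3) in WT CB, 21992 ± 783 (SD, n = 3) in WT CC, 22741 ± 307 (SD, n = 2) in HOMO CB and 22113 ± 629 (SD, n = 2) in HOMO CC. WT CB 2 held the highest value of 67 of the 80 tested members, and WT CC 1 the lowest of 26. Each subunit alone was also highest in WT CB 1 and 2, with a large-to-small ratio of 1.11 and 1.12 in WT CC 1 and 2 and 1.13 to 1.19 in the other libraries. In bulk RNA, fewer cells of a type and less RNA per cell cannot be told apart.

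**Figure D1:**
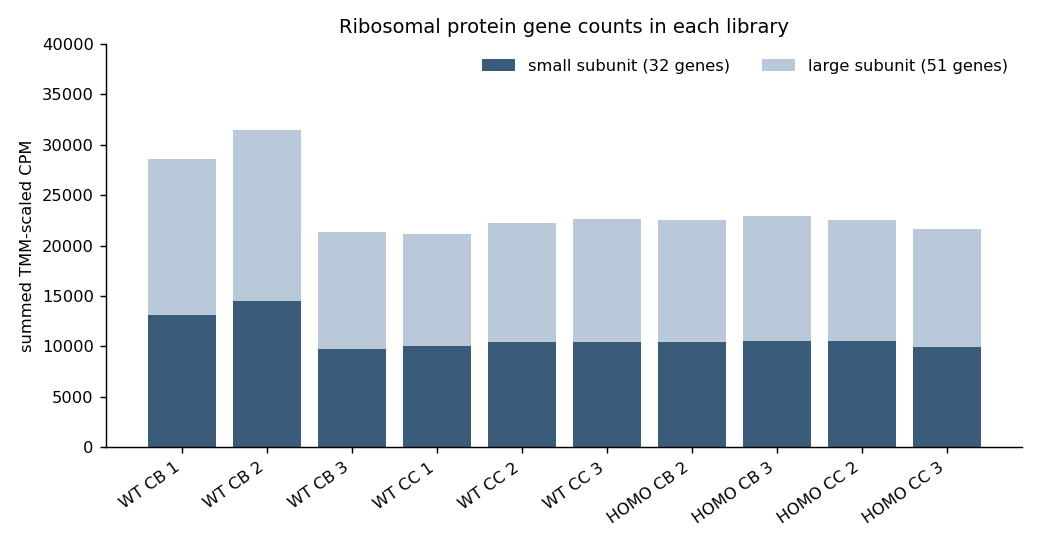
Summed TMM-scaled CPM of the small (dark) and large (light) subunit genes, 1 bar a library. WT CB 1 and 2 reach 28590 and 31444, and the other 8 libraries lie between 21113 and 22958.

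In WT, the median ribosomal protein mRNA was lower in CC than in CB between the libraries numbered 1 and those numbered 2, but not between those numbered 3. The test below takes all 3 together. Of 80 tested members, 18 fell and 1 rose (edgeR quasi-likelihood test, adjusted p under 0.05 over all genes), while among all genes tested 12.3% fell and 11.6% rose. Among the 3289 other genes at least as abundant as the members' 10th percentile, 847 fell (25.8%) and 417 rose (12.7%), beside 22.5% and 1.25% of the members. The median log2 change was -0.29 for the members, -0.27 for the small and -0.31 for the large subunit, against 0.01 for all genes and -0.10 for the abundant ones. At an unadjusted p under 0.05 there were 34 of the 80 members, beside 6029 of the 16596 genes tested. The libraries of both groups did not overlap for 8 lower and 1 higher member, where 17.9% of all genes were lower and 16.5% higher in that way.

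Rpl35a, a large subunit protein whose loss of function causes Diamond-Blackfan anemia, had the smallest p. It read 111, 115 and 84.4 in WT CB, 42.4, 37.2 and 66.3 in WT CC, 90.7 and 92.3 in HOMO CB and 76.8 and 69.2 CPM in HOMO CC. Every WT CC library was below every WT CB library, the HOMO CC libraries lay between the WT groups, and the HOMO CB libraries lay within the range of WT CB. The difference from CB to CC in WT was log2 -1.09, SE 0.19, adjusted p = 0.00313. Rpl39, a short protein that lines the exit tunnel, read 211, 234 and 148 in WT CB, 80.1, 87.5 and 133 in WT CC, 186 and 200.1 in HOMO CB and 167 and 148 CPM in HOMO CC. Its WT groups did not overlap either, with WT CC 3 next to WT CB 3 (log2 -0.98, SE 0.20, adjusted p = 0.00708).

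The paralogs Rps27l and Rpl22l1 fell with them. Rps27l, a copy of Rps27 that p53 induces, read 38.9, 40.9 and 25.5 in WT CB, 12.7, 15.5 and 22.2 in WT CC, 31.5 and 29.4 in HOMO CB and 25.8 and 19.2 CPM in HOMO CC. Its WT CC libraries were all below WT CB, and the fitted difference was log2 -1.07, SE 0.23, adjusted p = 0.00736. Rpl22l1, a copy of Rpl22 that can take its place in the ribosome, read 63.3, 60.2 and 55.8 in WT CB, 25, 21.9 and 45.9 in WT CC, 51.8 and 55 in HOMO CB and 43.9 and 39.7 CPM in HOMO CC, with no overlap of the WT groups (log2 -0.96, SE 0.22, adjusted p = 0.0125). The parent genes were less clear: Rps27 read 474, 561 and 345 CPM in WT CB and 151, 203 and 404 in WT CC, where WT CC 3 was above WT CB 3 (log2 -0.87, SE 0.33, adjusted p = 0.0913), and Rpl22 gave log2 -0.37, SE 0.13, adjusted p = 0.0507.

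Other members that fell have varied places in the ribosome. Rps25 read 358, 381 and 249 CPM in WT CB and 181, 223 and 246 in WT CC (log2 -0.60, SE 0.15, adjusted p = 0.0167); the groups did not overlap, but WT CC 3 was close to WT CB 3. Rps26, which touches the mRNA at the exit channel, read 468, 499 and 352 and 205, 228 and 354 (log2 -0.74, SE 0.19, adjusted p = 0.018). Rpl32 read 488, 533 and 344 and 190.4, 224 and 349 (log2 -0.84, SE 0.22, adjusted p = 0.0187). In Rps26 and Rpl32 the WT groups overlapped, because WT CC 3 reached WT CB 3. With a block for WT number, a pairing seen in the data and not given by the labels, the calls of Rps26, Rpl32 and Rpl10 were among those lost (adjusted p = 0.0549, 0.0639 and 0.0803). The blocked fit called 24 members lower and 2 higher, beside 3056 and 2811 of all genes. Of the 19 calls, 13 were shared.

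Members that fell also included Rpl10, which joins the large subunit last, the stalk protein Rplp0, Rps20, Rpl7, Rps15a, Rpl30, Rpl14, Rpl37 and Rps18, with log2 changes between -0.89 (Rps15a) and -0.34 (Rpl14). Of these, Rpl14, Rpl30, Rpl37 and Rps18 lay outside the rule for named genes and were named after their values were seen. Rps15a read 358, 399 and 299 CPM in WT CB and 130.3, 165 and 277 in WT CC, and Rplp0 read 1293, 1356 and 1063 and 793, 819.8 and 1101. Both had their 2 lowest values in WT CC 1 and 2.

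Rps10 alone rose. This small subunit protein, also mutated in Diamond-Blackfan anemia, read 9.69, 11.1 and 8.31 in WT CB, 13.9, 17.5 and 12.5 in WT CC, 7.1 and 7.62 in HOMO CB and 9.83 and 8.63 CPM in HOMO CC. Every WT CC library was above every WT CB library, and the HOMO CC libraries were above HOMO CB as well. The difference was log2 0.60, SE 0.17, adjusted p = 0.0281 in WT and log2 0.33, SE 0.22, adjusted p = 0.471 in HOMO. At these low counts, and with exons shared with other genes as given above, its level is uncertain.

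**Figure D2:**
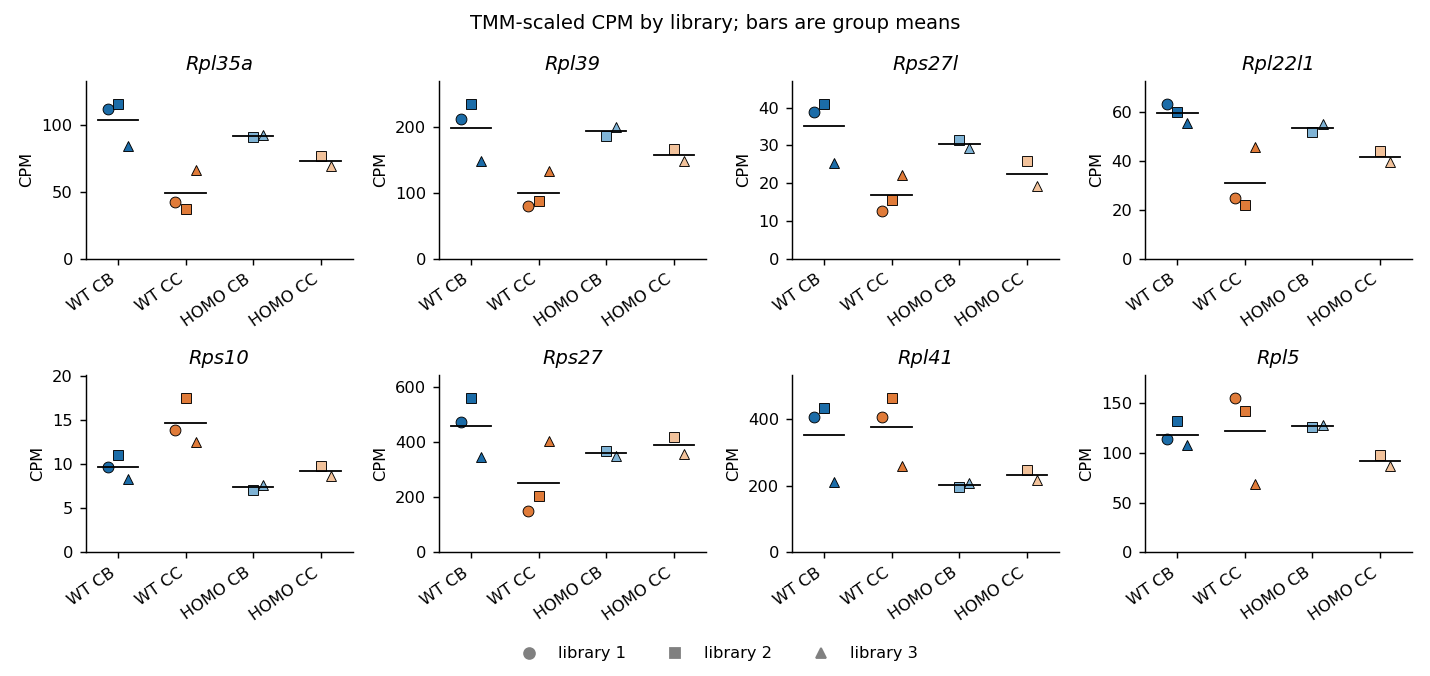
TMM-scaled CPM of 8 members in each library, with group means as bars and symbols for the library number; numbers of HOMO libraries are names only. WT CC 3 (triangle) lies nearer to the mean of the HOMO CC libraries than WT CC 1 and 2 do for all 8 members.

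Several members with well-known roles did not pass. Rpl5 and Rpl11, which with 5S rRNA bind Mdm2, gave 0.05 (adjusted p = 0.916) and -0.02 (0.959). Rps6, the target of S6 kinase, gave -0.05 (0.865), Rps19 -0.08 (0.623), Rpsa -0.28 (0.159) and Rps14 -0.27 (0.233). The stalk proteins Rplp1 and Rplp2 gave -0.22 (0.321) and 0.00 (0.988), and Rpl41, the shortest of these proteins, gave 0.10 (0.831).

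The WT difference was carried by libraries 1 and 2. Within WT number 1 the median log2 change of the 80 members from CB to CC was -0.46, with 73 members below 0, and within number 2 it was -0.47, with 72 below 0. Within number 3 it was 0.07, with 59 above 0. The medians over all genes, which the TMM scaling holds near 0, were 0.00, -0.01 and 0.00. All 18 members that fell were below 0 in numbers 1 and 2, and 7 of them also in number 3: Rpl14, Rpl22l1, Rpl35a, Rpl39, Rps15a, Rps25 and Rps27l. These 7 were also below 0 in HOMO, where 16 of the 18 were. Only Rpl10a, Rps10 and Rps23 were above 0 in all 3 numbers.

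**Figure D3:**
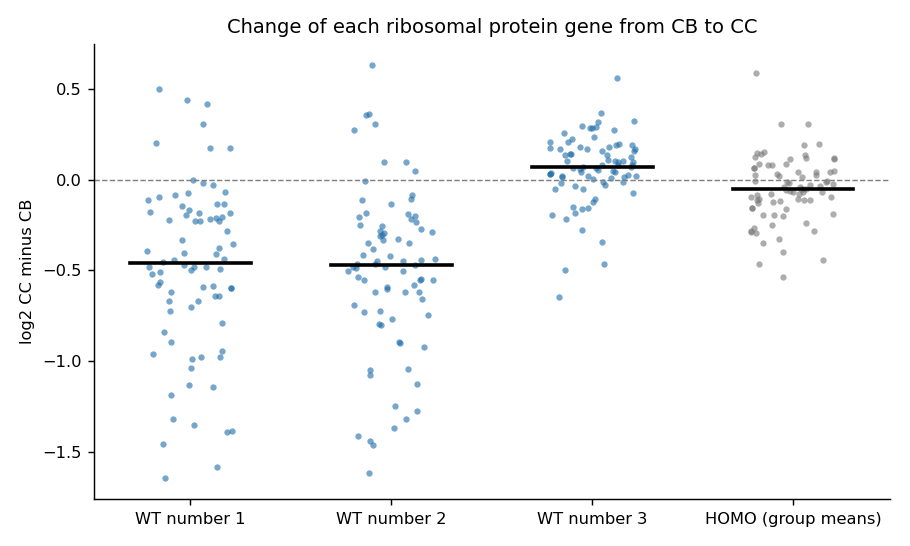
Log2 difference between CC and CB for each of the 80 tested members (points, spread sideways at random) within each WT number and between the HOMO group means; bars are medians. Numbers 1 and 2 centre at -0.46 and -0.47, number 3 at 0.07 and HOMO at -0.05.

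The counts depended on which WT libraries were in the fit. Without both WT libraries of number 3, 60 members fell and 5 rose, beside 3839 and 3565 of all genes. Without those of number 1 or of number 2, 0 and 1 members fell, beside 522 and 622 of all genes. Without WT CB 3 alone 53 members fell, and without WT CC 3 alone 29, beside 2751 and 2710 of all genes. Without any 1 of WT CB 1, WT CB 2, WT CC 1 or WT CC 2 between 4 and 5 members fell, beside 1119 to 1354 of all genes. In alternatives added after the data were seen, the median was 0.06 without WT CB 1 and 2. Without WT CC 1 and 2 the median kept its direction and moved little. It was 0.05 without WT libraries 1 and 2 of both fractions. In that last fit the value of Rpl35a was log2 -0.37. It kept 1 library in each WT group, so it holds no spread within WT.

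Beyond their level, the members changed relative to each other in WT CC 1 and 2. After subtraction of each gene's mean and each library's median, the SD over the 80 members was 0.37 on the log2 scale in both libraries and 0.12 to 0.18 in the other 8. In both, 27 members were below, and 23 above, all 8 other libraries. A share over all genes was not computed for this count, so it does not set the members apart from other genes. Lowest were Rps27, Rps15a, Rpl22l1, Rpl35a, Rpl39 and Rps27l, with means of -0.87 for Rps27 to -0.70 for Rps27l. Highest were Rpl41 (0.68), Rps10, Rps23, Rps12, Rpl10a and Rpl36a. Rpl41 read 408, 433 and 212 in WT CB, 407, 463 and 259 in WT CC, 197 and 209 in HOMO CB and 247 and 217 CPM in HOMO CC, and Rps12 read 264, 302 and 215 in WT CB, 353, 373 and 208 in WT CC, 235 and 256 in HOMO CB and 232 and 198 CPM in HOMO CC. The highest 2 values of Rps12 were those of WT CC 1 and 2, while Rpl41 was as high in WT CB 1 and 2 as there. This profile had rank correlations between -0.09 and 0.10 with gene length, GC content, level and the share of 50-base stretches found in another gene, over the 80 members.

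**Figure D4:**
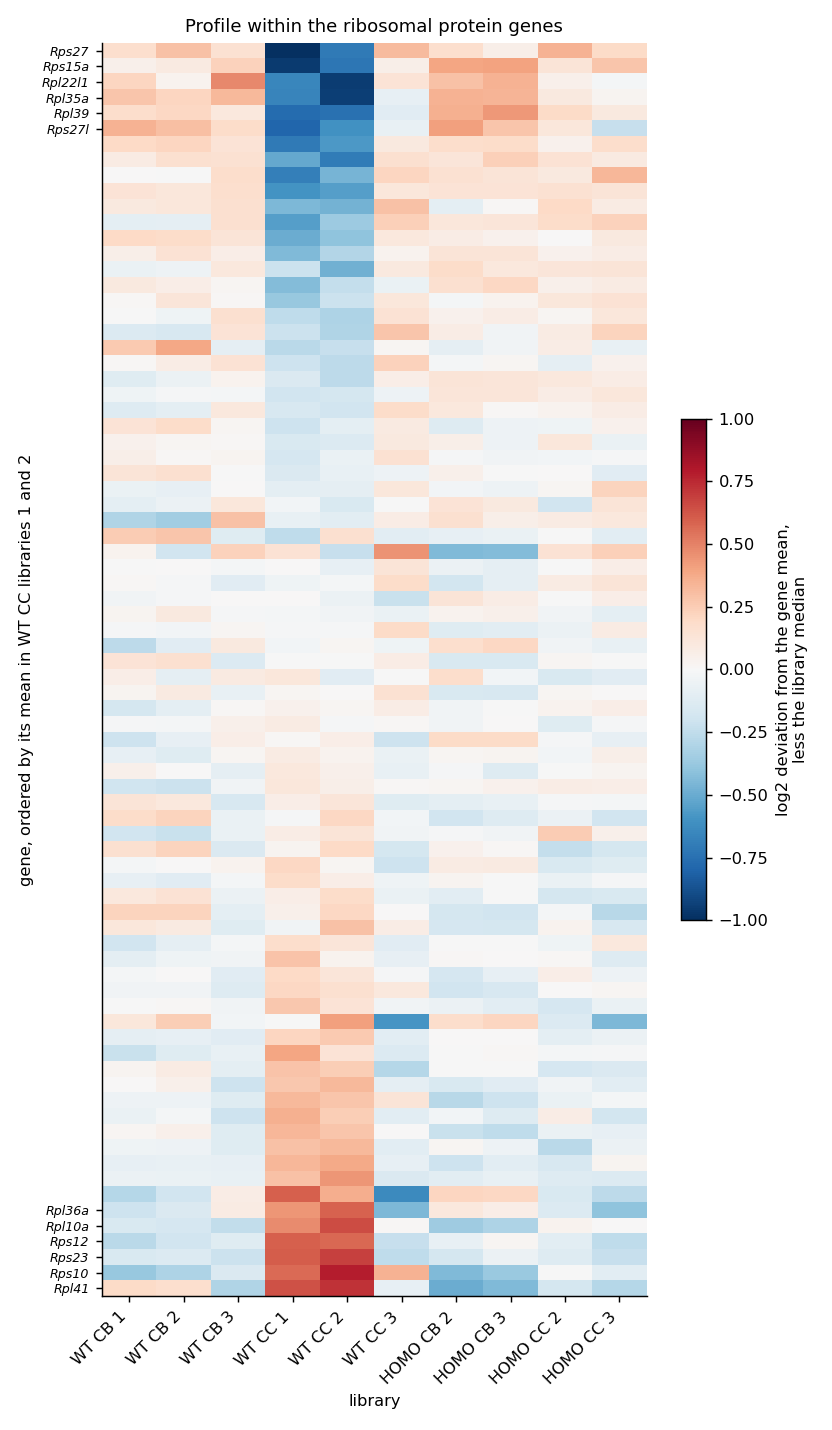
Log2 deviation of each tested member from its mean over the libraries, less the library's median (colour, cut at -1 and 1), with members ordered by their mean in WT CC 1 and 2 and the 6 at each end named. These 2 libraries share a pattern from Rps27 (lowest) to Rpl41 (highest) that the other 8 do not show to that extent.

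The changes of single members were nearly the same in WT numbers 1 and 2 (Pearson r = 0.948 over 80 genes) and unlike those of number 3 (0.072 and 0.135). Those of number 3 resembled the HOMO difference (0.873), which correlated with numbers 1 and 2 at 0.155 and 0.195. These are descriptions across genes within single libraries or group means, not tests, and the depths of the libraries differ as given above.

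**Figure D5:**
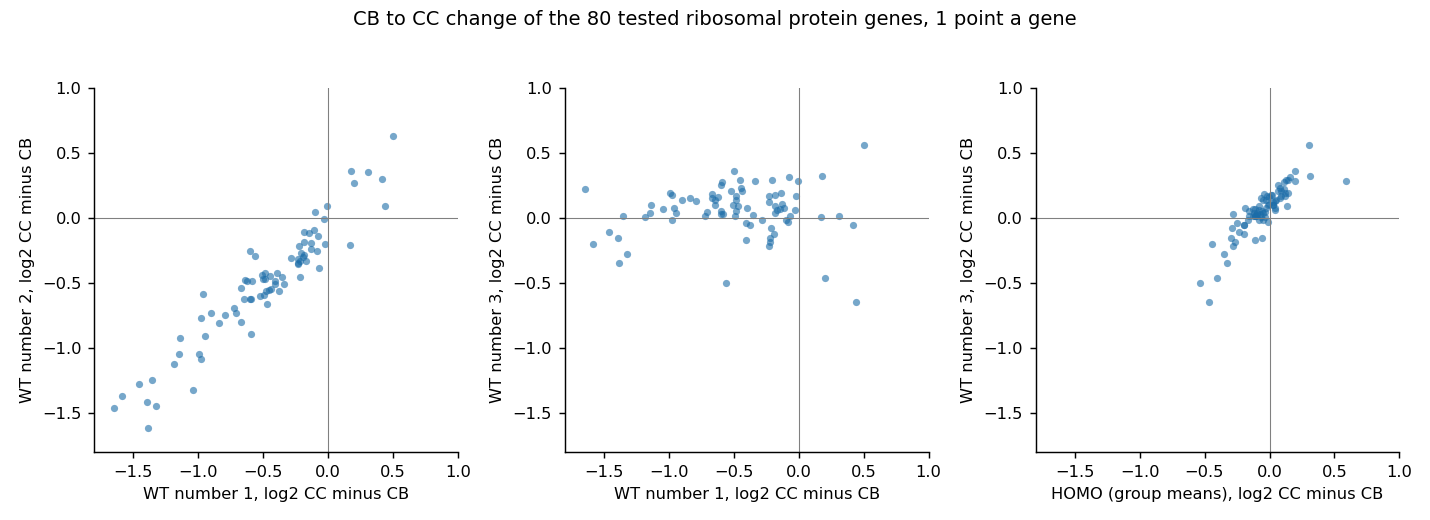
CB to CC change of each tested member, with WT number 2 against number 1 (left), number 3 against number 1 (middle) and number 3 against HOMO (right), all in log2 units. The left and right panels follow a line (r = 0.948 and 0.873), the middle one does not (0.072).

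In HOMO, no member passed from CB to CC (0 of 80 in either direction by edgeR and by DESeq2, 2 at an unadjusted p under 0.05). Over all genes, 2.98% fell and 2.46% rose by edgeR, and DESeq2 called 833 genes lower and 824 higher. Of the 16596 genes tested, 3188 had an unadjusted p under 0.05. The median of the members was -0.05. With 2 libraries each, 38 members were lower and 16 higher without overlap, against 33.2% and 28.8% of all genes. The largest rises were Rpl24 (log2 0.68, SE 0.30, adjusted p = 0.244) and Rps10, and the largest falls in value were Rps29 (log2 -0.53, SE 0.33, adjusted p = 0.455) and Rpl5 (log2 -0.46, SE 0.30, adjusted p = 0.46). Rps29 read 95 and 99.7 CPM in HOMO CB and 76.6 and 58.4 in HOMO CC, and Rpl5 read 126 and 128 and 97.9 and 86.3. Across the 80 members the HOMO difference had a rank correlation of 0.531 with the GC content of the transcript, and libraries differed in GC trend over genes whose mean log2 CPM was 3 or more, with rank correlations from -0.628 (HOMO CB 2) to 0.549 (WT CC 2). With an offset for GC content in the fit no member passed either (0 of 80). A fit of the HOMO libraries alone called 7 members higher and 14 lower, beside 2123 and 2329 of all genes.

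Between genotypes in CB, no member passed (0 of 80 in either direction by edgeR and by DESeq2, 13 at an unadjusted p under 0.05). Over all genes, edgeR called 0.0181% lower and 0.00603% higher, while DESeq2 called 141 genes lower and 137 higher. Of the 16596 genes tested, 2079 had an unadjusted p under 0.05. The members' median of HOMO against WT was -0.25, against -0.04 over all genes. Without overlap, 8 members were lower and 0 higher, against 16.4% and 18.8% of all genes. The largest falls in value were Rpl24 (log2 -0.81, SE 0.27, adjusted p = 0.311) and Rpl41 (log2 -0.79, SE 0.31, adjusted p = 0.372), and the largest rises Rpl5 (0.11) and Rps13 (0.04). Rpl41 read 197 and 209 CPM in HOMO CB and 408, 433 and 212 in WT CB, WT CB 3 being close to HOMO. Across the members this difference had a rank correlation of -0.466 with GC content and 0.315 with gene length, and with the GC offset its median was -0.15, with 0 calls. Without WT CB 1 and 2 the median became 0.11. Without WT CB 3, 32 members were called lower, beside 923 of all genes.

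In CC, no member passed between genotypes (0 of 80 in either direction by edgeR and by DESeq2, 5 at an unadjusted p under 0.05). By edgeR no gene passed either (0% in both directions), while DESeq2 called 359 genes higher and 457 lower. Of the 16596 genes tested, 3142 had an unadjusted p under 0.05. The median of the members was 0.00. The libraries did not overlap for 11 lower and 6 higher members, against 17.4% and 17.7% of all genes. Rpl41 (log2 -0.70, SE 0.31, adjusted p = 0.267) and Rps10 (log2 -0.66, SE 0.20, adjusted p = 0.148) had the largest falls in value, and Rps15a (log2 0.68, SE 0.25, adjusted p = 0.204) and Rpl39 (log2 0.66, SE 0.22, adjusted p = 0.176) the largest rises. These are members at the ends of the profile of WT CC 1 and 2, and WT CC 3 read 259 CPM for Rpl41 beside 247 and 217 in HOMO CC. Without WT CC 3, 13 members were called higher and 5 lower, beside 1218 and 1206 of all genes. Genotype comparisons share their libraries with the comparisons of fractions.

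The difference between genotypes in the change from CB to CC, tested as an interaction, passed for no member (0 of 80 by edgeR and by DESeq2, 5 at an unadjusted p under 0.05) and for no gene (0%). Of the 16596 genes tested, 434 had an unadjusted p under 0.05. The median interaction was 0.27 over the members and 0.00 over all genes. The largest values were Rps27 (log2 0.98, SE 0.52, adjusted p = 1) and Rpl24 (0.86), and the lowest Rpl5 (-0.51) and Rpl36a (-0.47). Without both WT libraries of number 3, 41 members were called higher and 4 lower, beside 811 and 634 of all genes. Without WT libraries 1 and 2 of both fractions the median was -0.08.

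The other paralogs and like-named members had these values. From CB to CC in WT, Rpl7 fell (log2 -0.47, SE 0.14, adjusted p = 0.0328) and Rpl7l1, a nucleolar relative, gave -0.07 (adjusted p = 0.726). Rpl36 gave -0.59 (0.0638) and Rpl36a, unrelated in sequence despite its name, 0.07 (0.853). Rpl3 gave -0.27 (0.105), and Rps4x, the X-linked gene whose Y-linked copy mice lack, -0.35 (0.0617).

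Genes that work with the ribosome were counted in the same way. Of 24 other genes with known TOP mRNAs, 7 fell (29.2%) and 1 rose (4.17%) from CB to CC in WT, with a median of -0.19, beside the 12.3% of all genes and 25.8% of abundant genes that fell. Eif3e, an initiation factor subunit, read 231, 232 and 199 CPM in WT CB and 137, 123 and 170.5 in WT CC (log2 -0.62, SE 0.12, adjusted p = 0.00409). Gas5, a noncoding host of small nucleolar RNAs with a TOP tract, rose in both genotypes: it read 111, 122 and 108 in WT CB, 172, 149.7 and 145 in WT CC, 103 and 106 in HOMO CB and 143 and 152 CPM in HOMO CC, with no overlap between fractions (log2 0.45, SE 0.09, adjusted p = 0.0063 in WT, adjusted p = 0.0302 in HOMO). Of 22 initiation factors, 5 fell in WT (22.7%). Eif1ax, which helps select the start codon, read 101, 104 and 96.8 in WT CB, 59.7, 57.7 and 61.4 in WT CC, 108 and 109 in HOMO CB and 73.4 and 78.6 CPM in HOMO CC and fell in both genotypes (log2 -0.76, SE 0.08, adjusted p = 0.000148 in WT, -0.52 with adjusted p = 0.0114 in HOMO). Eif4g2 read 1482, 1485 and 1431 in WT CB, 800.3, 741 and 1051 in WT CC, 1470.3 and 1488 in HOMO CB and 1035 and 1064 CPM in HOMO CC and passed in WT (log2 -0.76, SE 0.12, adjusted p = 0.00143) but not in HOMO (adjusted p = 0.0767), and neither interaction passed.

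Among 13 genes of mTORC1 and TOP control, 3 rose (23.1%) and 2 fell (15.4%) in WT, beside 11.6% and 12.3% of all genes tested. Rptor (log2 0.51, SE 0.09, adjusted p = 0.00336) and Mtor (log2 0.38, SE 0.08, adjusted p = 0.00763) were among those that rose. Of 11 chaperones and import factors of ribosomal proteins, 2 rose in WT (18.2%): Grwd1 (log2 0.67, SE 0.16, adjusted p = 0.0134) and Heatr3, which imports Rpl5. Heatr3 read 29, 26.9 and 28.1 in WT CB, 44.4, 35.9 and 38.3 in WT CC, 27.2 and 28.6 in HOMO CB and 40.9 and 40.9 CPM in HOMO CC. Heatr3 also rose in HOMO (log2 0.55, SE 0.13, adjusted p = 0.0287). Of 6 genes of the p53 checkpoint, Mdm2 alone passed, at 118, 116 and 120.2 in WT CB, 96.1, 91.3 and 90.1 in WT CC, 123 and 123 in HOMO CB and 91.3 and 96.9 CPM in HOMO CC, and it fell in both genotypes (log2 -0.35, SE 0.08, adjusted p = 0.0082 in WT, adjusted p = 0.0402 in HOMO). For Gas5, Eif1ax, Heatr3 and Mdm2 the CC libraries of each genotype all lay on the same side of its CB libraries. None of 5 other ribosome components or ubiquitin fusions passed (0 by edgeR, and 0 at an unadjusted p under 0.05), Rack1 giving -0.27 and Fau 0.32. The list holds Rps27a, which is also a member.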

How the data were processed

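The table deposited by the authors holds unnormalized whole read counts per gene and a gene length in bases that counts all exons. The submitters' processing notes name the tools FastQC, STAR, Subread and featureCounts, R 4.2.1, and the build mm10. How strand and reads with several matches were handled, and the annotation, is not given in the sources used here. Symbols came from GENCODE M21, which matched 54673 identifiers with version, each at the coordinates of the table, and 567 without; 181 had no match. HOMO columns carry the numbers 2 and 3 but HOMO titles 1 and 2, so these columns were assigned to their group only.

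After a filter on low counts (filterByExpr, minimum count 10 and minimum total 15) and TMM scaling in edgeR 4.0.16 (R 4.3.3), 16596 genes were tested. All 10 libraries entered 1 model with a mean for each of the 4 groups, and contrasts were tested by robust quasi-likelihood F-tests, with Benjamini-Hochberg adjustment over all genes at 0.05. The SE of a log2 change is its size over the root of F. CPM values are TMM-scaled. Alternatives were DESeq2 1.42.0, other scalings and filters, an offset for GC content, added pseudogene counts and left-out libraries. Steps were tested on simulated data.

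Named genes are up to 8 members with the smallest p per direction and comparison, or else the 2 largest rises and falls, the 4 highest and lowest per kb, 14 members with a described role, and paralog pairs. Rps12, Rps23 and Rpl10a, like Rpl14, Rpl30, Rpl37 and Rps18, lay outside this rule and were named after their values were seen. For other lists the 2 genes of smallest p are named. Some genes are not reported here by name, but all counts, medians and sums include them. Members and lists were chosen with earlier results of these data known. WT numbers were taken to pair the libraries, from the data: over 8910 genes, deviations from the group means had r = 0.384, 0.424 and 0.426 between libraries of equal number and -0.445 to 0.282 between unequal ones. The numbers of HOMO columns, which differ from those of the titles, were not used to pair libraries.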

Additional observations from a re-analysis of the deposited data

How the results depend on the processing

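Of 393 alternative values of the counts, medians and sums, 325 kept their direction and moved little, 62 moved and 6 changed sign. Counts over all genes moved with the settings too. From CB to CC in WT, 522 genes were lower without number 1 and 3839 without number 3. From CB to CC in WT, where 18 members fell and 1 rose, upper-quartile scaling gave 11 lower, beside 1599 of all genes. No filter on low counts gave 39 lower, beside 2436 of all genes. A fit of only the groups compared gave 4 lower and 0 higher, beside 1188 and 1152 of all genes. DESeq2 gave 26 lower and 1 higher, beside 2245 and 2307 of all genes. With the WT replicate block, 24 were lower and 2 higher at a median of -0.28, while the interaction still had 0 calls (median 0.259). Leaving out single libraries or both WT libraries of a number gave 0 to 60 lower, 0 to 5 higher and a median of -0.464 to -0.177. The 3 alternatives that follow were added after the data were seen. They left out WT CB 1 and 2 (median 0.063), WT CC 1 and 2 (median of unchanged direction), or WT 1 and 2 of both fractions (median 0.0468). In that last fit, which kept 1 library in each WT group, assumed to vary like the HOMO libraries, changes of sign included those of Rplp0 (0.0257), Rpl10 (0.0461), Rpl7 (0.029), Rplp1 (0.342), Rps14 (0.269), Rpl36a (-0.495) and Rpl5 (-0.673, and -0.771 without WT CC 1 and 2). From CB to CC in HOMO, no filter gave 2 lower, only the groups compared 7 higher and 14 lower, no WT 1 and 2 gave 7 and 15, and leaving out libraries 0 to 1 higher and 0 to 12 lower. For HOMO against WT in CB, no filter gave 10 lower, beside 246 of all genes. Leaving out libraries gave 0 to 61 lower. The 61 came without both WT libraries of number 3, beside 2433 of all genes. The median was 0.109 without WT CB 1 and 2. It was 0.0833 without WT 1 and 2 of both fractions, where Rpl39 (0.369) and Rps25 (0.244) changed sign. For HOMO against WT in CC, no filter gave 10 higher and 4 lower, beside 622 and 692 of all genes. Leaving out libraries gave 0 to 25 higher and 0 to 20 lower. The 25 and 20 came without both WT libraries of number 3, beside 2649 and 2386 of all genes. Without WT 1 and 2 of both fractions, Rpl5 was at 0.448. For the interaction, no filter gave 9 higher, beside 53 of all genes. Leaving out libraries gave 0 to 41 higher, 0 to 4 lower and a median of 0.157 to 0.461. The 41 and 4 came without both WT libraries of number 3, beside 811 and 634 of all genes. The median was -0.108 without WT CB 1 and 2 and -0.0764 without WT 1 and 2 of both fractions. Over only the members with no exon base shared with another gene, which are fewer, sums were 14103 CPM in WT CB, 11163 in WT CC, 12017 in HOMO CB and 11620.4 in HOMO CC. The HOMO CC sum was 23383 CPM with raw library totals and 22836 with upper-quartile scaling. Apart from what a setting leaves out, the cause was not tested. Groups of 2 or 3 libraries limit what can pass, and at the counts of Rpl24 and Rps10 small differences were not detectable.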

Other observations

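Some values of the same libraries belong to no comparison above. The sum over mitochondrial genes was 27363 CPM in WT CC 1, 16089 in WT CC 2 and 9376 in WT CC 3, with 12851 to 19966 in the WT CB libraries and 9149 to 13139 in the HOMO libraries. The 8 neutrophil markers summed to 160 and 129 CPM in the HOMO CB and HOMO CC libraries numbered 2, and to at most 15.03 in every other library. The 298 pseudogene rows named after 60 of the members summed to 62.9 to 87.6 CPM per library, beside 21113 to 31444 CPM for the members themselves. Of the members with at least 50% of their 50-base stretches in another gene, 8 of 41 fell (19.5%) and 1 rose from CB to CC in WT. Of those with less, 10 of 39 fell (25.6%). Among the 42 tested members that share no exon base with another gene, 10 fell (23.8%). By the same test 12.3% of all genes fell. So did 25.8% of the other genes at least as abundant as the members' 10th percentile.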
